A study of Mus musculus with 16 samples.

Results

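Sites outside protein-coding genes were examined in muscle stem cells, with and without knockdown of the long noncoding RNA LncMyoD. At each, the transcription factor MyoD was found in every library, and the surrounding chromatin carried the acetylation mark H3K27ac in every library. They are called intergenic here, although some overlapped genes of long noncoding RNAs. Members were chosen by 4 criteria: a MyoD peak in all 4 MyoD libraries after overlapping peaks were merged, no overlap with a protein-coding gene body, a distance of 1 to 50 kb to the nearest such gene, and overlap with a merged H3K27ac region that had a peak in all 4 H3K27ac libraries. This gave 1678 regions of the 9909 MyoD regions with a peak in all 4 libraries, which are called constant regions here, and of 24264 MyoD regions in all. The 1678 members lay in 1538 acetylated regions, here called hosts, of the 26113 constant and 59960 total H3K27ac regions. Because the choice required a peak in control and knockdown alike, regions that lost or gained MyoD are not among them, and presence itself is no result.

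The LncMyoD gene lies upstream of Myod1, the gene of MyoD. The cells were satellite cells, the muscle stem cells, isolated from hindlimb muscle of C57BL/6 mice and cultured. Each antibody was used on 2 libraries with the genotype label control and 2 labelled LncMyoD-KD, and all cells were harvested after 48 h of siRNA. The treatment text names an siRNA against LncMyoD for every sample, so the agent given to control cells is unclear, and the groups rest on titles and genotype labels. The labels tie replicates to no separate mouse or culture, so their spread may be technical, and they give no age. The lists held 13146 to 17818 MyoD peaks and 39964 to 54082 H3K27ac peaks, with the fewest of both in knockdown 2. They carry no read counts, so depth is unknown, and RNA was not measured, so depletion of LncMyoD was not checked.

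MyoD is a basic helix-loop-helix factor that drives muscle precursor cells towards differentiation. It binds as a dimer with an E protein to E-boxes, short palindrome-like motifs of the form CANNTG, with CAGCTG as its preferred core. H3K27ac, acetylation of lysine in the tail of histone H3, marks active promoters and enhancers, and it sits on the nucleosomes that flank the open stretch where factors bind. Enhancers can act over long distances and skip genes, so the nearest gene named below is a label of position, not of a target.

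The bases under MyoD could be read for a small share of the members. RefSeq start windows (GRCm38.p6, the assembly that mm10 represents) give 250 bases before and 50 bases after the start of a gene, 300 in all, on the gene's strand. Of the 1678 members, 42 overlapped such a window and 16 had all 4 MyoD summits inside 1 window. All 16 windows belonged to lncRNA genes, since the 1 kb bound keeps out the starts of protein-coding genes. The E-box search in these windows was chosen after the files had been seen. Windows are shown because they put the MyoD summit and the motif on the same sequence. Capitals mark CANNTG E-boxes on the printed strand, which, since the form reads the same on both strands, include every CAGCTG and every CACCTG or CAGGTG. The first, near Glce, is one of the strongest members, the next pair ranked lower in the knockdown, the Rhob window has summits on both sides of 2 CAGCTG motifs, and the last pair ranked higher in the knockdown.
Gm35227: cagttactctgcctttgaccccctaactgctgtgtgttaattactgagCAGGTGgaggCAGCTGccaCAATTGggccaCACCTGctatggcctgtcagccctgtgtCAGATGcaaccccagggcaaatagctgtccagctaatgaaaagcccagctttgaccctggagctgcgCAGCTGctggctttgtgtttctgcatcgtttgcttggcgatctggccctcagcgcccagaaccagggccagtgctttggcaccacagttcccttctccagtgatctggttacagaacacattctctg
C130083M11Rik: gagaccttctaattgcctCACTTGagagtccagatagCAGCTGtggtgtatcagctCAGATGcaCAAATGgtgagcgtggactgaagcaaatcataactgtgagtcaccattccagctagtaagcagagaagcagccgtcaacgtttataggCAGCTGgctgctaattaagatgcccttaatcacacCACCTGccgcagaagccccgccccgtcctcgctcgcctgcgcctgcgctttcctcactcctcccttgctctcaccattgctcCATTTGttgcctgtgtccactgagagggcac
E030011O05Rik: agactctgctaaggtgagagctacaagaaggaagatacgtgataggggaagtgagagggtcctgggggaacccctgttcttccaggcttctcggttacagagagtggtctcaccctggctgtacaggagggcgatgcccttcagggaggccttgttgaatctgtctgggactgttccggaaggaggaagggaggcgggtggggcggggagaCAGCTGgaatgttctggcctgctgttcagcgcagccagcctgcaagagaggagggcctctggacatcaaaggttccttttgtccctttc
5033421B08Rik: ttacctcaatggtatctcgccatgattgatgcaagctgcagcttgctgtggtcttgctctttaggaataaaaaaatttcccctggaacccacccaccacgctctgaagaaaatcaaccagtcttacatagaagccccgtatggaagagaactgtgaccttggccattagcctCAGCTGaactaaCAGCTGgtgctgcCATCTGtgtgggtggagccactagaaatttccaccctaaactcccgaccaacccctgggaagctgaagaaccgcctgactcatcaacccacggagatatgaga
Gm2885: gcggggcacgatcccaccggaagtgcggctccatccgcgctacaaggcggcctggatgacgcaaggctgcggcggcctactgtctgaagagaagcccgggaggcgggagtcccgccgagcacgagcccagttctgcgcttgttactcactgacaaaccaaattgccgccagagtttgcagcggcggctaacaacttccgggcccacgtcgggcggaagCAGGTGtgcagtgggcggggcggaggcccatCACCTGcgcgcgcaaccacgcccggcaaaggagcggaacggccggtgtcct
Gm35621: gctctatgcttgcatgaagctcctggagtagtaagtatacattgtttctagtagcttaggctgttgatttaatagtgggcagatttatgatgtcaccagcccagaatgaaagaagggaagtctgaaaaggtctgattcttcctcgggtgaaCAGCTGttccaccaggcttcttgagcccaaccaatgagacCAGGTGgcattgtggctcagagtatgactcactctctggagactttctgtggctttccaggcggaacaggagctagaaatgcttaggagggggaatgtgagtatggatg

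In the Gm35227 window (chr9:62166253-62166552, plus strand, 43.4 kb from Glce), MyoD fold enrichment at the summit was 29.4 and 29.5 in control against 24.1 and 28.6 in knockdown libraries. The window held 6 E-boxes, of which 2 were CAGCTG and 2 were CACCTG or CAGGTG. The 4 summits lay at bases 100 to 117, each 18.5 to 35.5 bases from the nearest of these 4. C130083M11Rik (chr5:52216384-52216683, minus strand, 25.7 kb from Dhx15) had 14.2 and 18.5 in control against 13.6 and 11.4 in knockdown libraries. E030011O05Rik (chr9:96752782-96753081, minus strand, 20.8 kb from Zbtb38) held a single E-box, a CAGCTG, and had 11.6 and 11.9 against 10.7 and 10.2. In both, each knockdown library was below each control library. At 5033421B08Rik (chr12:8510913-8511212, plus strand, 10.8 kb from Rhob, a small GTPase gene) the 4 summits lay 15.5 to 32.5 bases from the centre of the nearest CAGCTG, with folds of 9.25 and 11.9 in control against 10.3 and 9.40 in knockdown libraries.

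Gm2885 (chr17:6827967-6828266, minus strand, 45.0 kb from Ezr, the gene of the membrane linker ezrin) had no CAGCTG but 1 CAGGTG and 1 CACCTG. Its folds were 9.25 and 8.61 in control against 12.2 and 11.4 in knockdown libraries. At Gm35621 (chr6:8623057-8623356, plus strand, 7.10 kb from Ica1) the 4 summits lay 3.5 to 33.5 bases from the nearest CAGCTG or CAGGTG, and the folds were 8.44 and 8.11 against 13.3 and 8.23. Both lay higher in each knockdown library by rank.

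Of the 16 windows, 14 (87.5%) held CAGCTG, against 5355 of all 32851 windows (16.3%), 17.4% of the 11807 windows of non-coding genes, and 238 of the 330 windows (72.1%) that held the 4 summits of any constant MyoD region. CACCTG or CAGGTG was in 6 (37.5%), against 20.2% of all windows and 37.6% of the 330. Any CANNTG was in 16 of 16, against 72.3% of all windows and 97.9% of the 330. Within 50 bases of the centre of a CAGCTG or of one of the other 2 motifs lay the summit of control 1 in 12 of the 16, of control 2 in 12, of knockdown 1 in 13 and of knockdown 2 in 12, and all 4 summits in 9. The median distances were 30, 23.5, 20.5 and 23 bases in that order. The farthest summit was at Gm11476 near Snai1, at 163.5 bases. These are descriptions of 16 windows, which share their position at a lncRNA start.

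MicroRNAs gave a second set of sequences, because some microRNA genes of muscle lie near members. Within 10 kb of a RefSeq hairpin there were 34 members near 31 hairpins, and 2 hairpins were themselves overlapped, Mir1953 near Fam110a and Mir6347 near Uck2. The mature sequences of the best known are given with the seed, bases 2 to 8, in capitals. The let-7 forms share 1 seed, and the others each have their own.
mmu-miR-206-3p: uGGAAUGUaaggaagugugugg
mmu-miR-133b-3p: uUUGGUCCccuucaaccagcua
mmu-miR-22-3p: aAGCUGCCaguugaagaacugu
mmu-let-7a-5p: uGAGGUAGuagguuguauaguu
mmu-let-7f-5p: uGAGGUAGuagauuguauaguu
mmu-let-7d-5p: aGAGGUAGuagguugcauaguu
mmu-miR-130a-3p: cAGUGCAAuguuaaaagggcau

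miR-206 and miR-133b are made from 1 muscle-specific locus on chromosome 1 and act in myoblast differentiation. The member nearest Mir206, chr1:20667459-20668177, lay 10.8 kb from the hairpin, just past the 10 kb limit, and was picked out after its values were seen. It is labelled by Pkhd1, and its folds were 19.8 and 21.2 in control against 17.3 and 19.2 in knockdown libraries. On the other side, a member 8.41 kb from Mir133b (chr1:20691296-20691838, nearest gene Il17a) had 7.93 and 6.95 in control against 6.26 and 5.88 in knockdown libraries, so the groups did not overlap. Mir22 had 3 members at 0.259, 3.23 and 4.49 kb, which shared 1 host with H3K27ac folds of 26.0 and 32.8 in control against 26.6 and 29.4 in knockdown libraries. That host stood at a mean percentile rank of 99.96, near the very top of all constant H3K27ac regions. Its nearest member had MyoD folds of 11.6 and 9.94 against 11.7 and 9.01. The cluster of Mirlet7a-1, Mirlet7f-1 and Mirlet7d had 1 member 7.16 to 9.32 kb away (chr13:48545434-48546027, nearest gene Ptpdc1), with 18.5 and 15.9 in control against 18.8 and 15.7 in knockdown libraries. A member 8.84 kb from Mir130a had 19.5 and 18.5 in control against 17.2 and 16.1 in knockdown libraries, again without overlap between the groups.

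The level of MyoD at all members was described next. Fold enrichment is the peak caller's ratio of signal to background at the summit, a value of its own list. In bulk chromatin, binding in fewer cells and weaker binding in each cell cannot be told apart. The median fold over the 1678 members was 9.58 in control 1, 9.27 in control 2, 9.60 in knockdown 1 and 8.23 in knockdown 2. Over all 9909 constant regions the same medians were 8.86, 8.61, 8.84 and 7.84. Folds of single members ran from 2.80 to 35.7 in control 1 and from 3.32 to 34.9 in knockdown 2. The median fold of knockdown 2, the library with the fewest peaks, was the lowest in both sets. To set libraries side by side, each region was therefore given a percentile rank from 0 to 100 among the constant regions of its library.

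The strongest members by mean rank stood beside genes of varied function. The first, near the exocyst gene Exoc7 (chr11:116285612-116286459, 1.54 kb away), had folds of 35.7 and 34.1 in control against 35.4 and 34.1 in knockdown libraries. It was followed by a region near Purb, which encodes a nucleic-acid-binding repressor of muscle genes (chr11:6480953-6482351, 4.88 kb), with 32.1 and 36.4 against 41.9 and 30.6. The next, near Gsap (chr5:21144359-21145066, 31.0 kb), had 26.8 and 34.8 against 35.7 and 32.9. The remaining 7 of the top 10 were near Dars, Gm10654, Sh3glb1, Lhx2, Gal, Lama5 and Ube2d1. The member near Lama5, the gene of a laminin chain of the basement membrane, was the widest of all at 1618 bp (chr2:180227373-180228990) and had 27.4 and 26.2 against 29.8 and 27.04. The region near Gm10654 was also 2.35 kb from Mir1969, with 29.4 and 29.8 against 30.2 and 28.6. All 10 had a mean rank above 99 over the 4 libraries, the value by which they were chosen. Library order differed from one to the next: knockdown 1 was highest at Purb and control 2 at Dars.

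**Figure D1:**
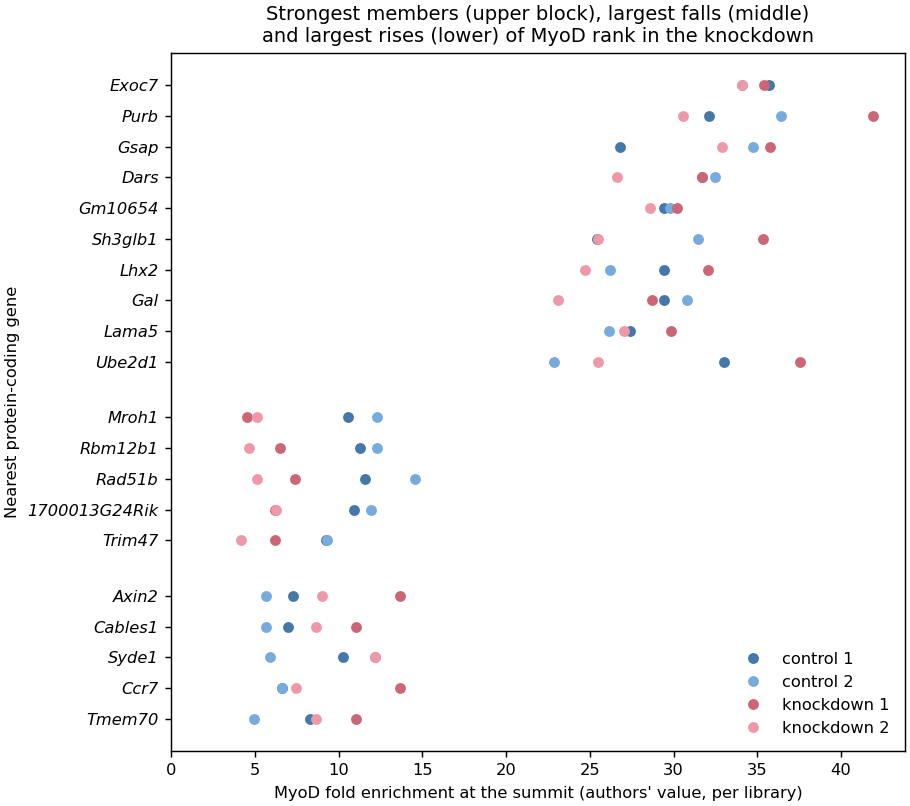
MyoD fold enrichment at the summit (horizontal axis, the authors' value) in each of the 4 libraries (coloured points) for the 10 members with the highest mean rank, the 5 with the largest fall and the 5 with the largest rise of rank in the knockdown, each labelled by its nearest protein-coding gene. The upper 10 lie between 22.9 and 41.9, and all 10 of the others lie below 15.

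Whether the members carried more MyoD than other constant regions was asked within each library. Members were ranked above constant regions without any H3K27ac peak (n = 1009) by 29.8, 28.1, 30.2 and 20.8 percentile points in control 1, control 2, knockdown 1 and knockdown 2, a mean of 27.2. Against constant regions on or within 1 kb of a gene end (n = 1317) the difference was 9.89, 11.0, 15.6 and 9.62 points, a mean of 11.5. Of these 1317 regions, 1122 overlapped H3K27ac found in all 4 libraries, so this class was not matched to the members in acetylation. Both differences had the same sign in 4 of 4 libraries, and the two-sided exact sign-flip permutation test over libraries gave p = 0.13, the smallest it allows with 4. Against acetylated constant regions inside gene bodies (n = 3787) it was 2.94, 3.47, 2.60 and 0, a mean of 2.25 with exact p = 0.25. Peaks were also wider, by a mean of 80.5 bp against regions without H3K27ac and 30.3 bp against gene ends (exact p = 0.13 each). Against regions in genes the width difference was 6.5, 9.5, 10 and -1 bp in the same library order. The mean was 6.25 bp (exact p = 0.25), with the opposite sign in knockdown 2. Intergenic members thus had values close to those of acetylated regions inside genes and above those of both other classes, though 4 libraries cannot take this test below 0.05.

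**Figure D2:**
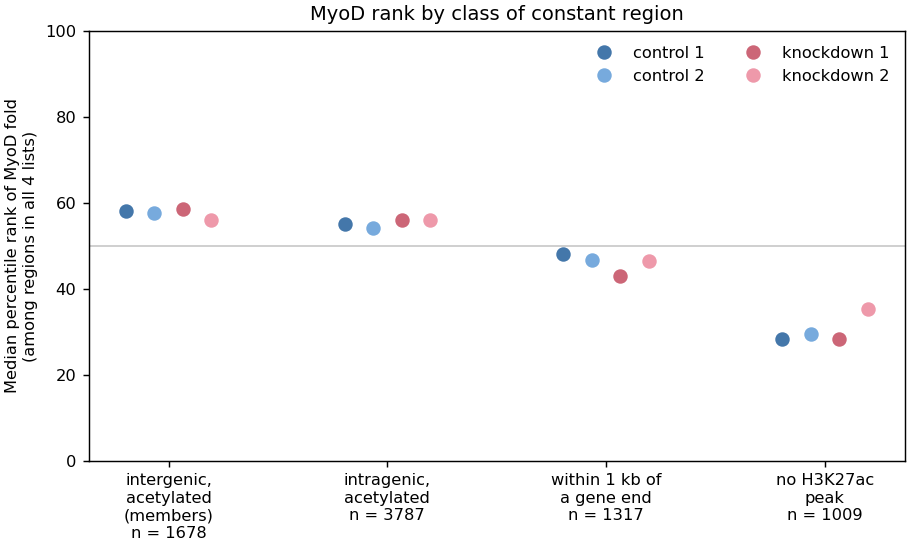
Median percentile rank of MyoD fold (vertical axis, 0 to 100) for the members and 3 other classes of constant MyoD region, 1 point per library. Members lie at 56.1 to 58.6 and regions with no H3K27ac peak at 28.3 to 35.4.

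Distance to the nearest protein-coding gene had a median of 12.6 kb over the members, with quartiles of 5.33 and 26.5 kb. Of the 2284 constant MyoD regions 1 to 50 kb from a gene, 1678 (73.5%) were members, 309 (13.5%) lay in H3K27ac that was not found in all 4 libraries and 297 (13.0%) in none. The share of members was 78.9% of 503 regions at 1 to 5 kb, 72.5% of 415 at 5 to 10 kb, 69.7% of 552 at 10 to 20 kb and 73.1% of 814 at 20 to 50 kb. It was highest next to genes and varied little beyond 5 kb. Among members whose nearest gene has a strand in the tables, 690 of 1297 (53.2%) were on its upstream side, against 119 of 228 (52.2%) of those with no H3K27ac. A lncRNA gene body was overlapped by 363 members (21.6%), against 64 of 297 (21.5%). Side and lncRNA overlap were thus nearly equal with and without acetylation, whereas MyoD rank was not: the median of the mean rank was 55.3 for members and 29.7 for the 297.

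**Figure D3:**
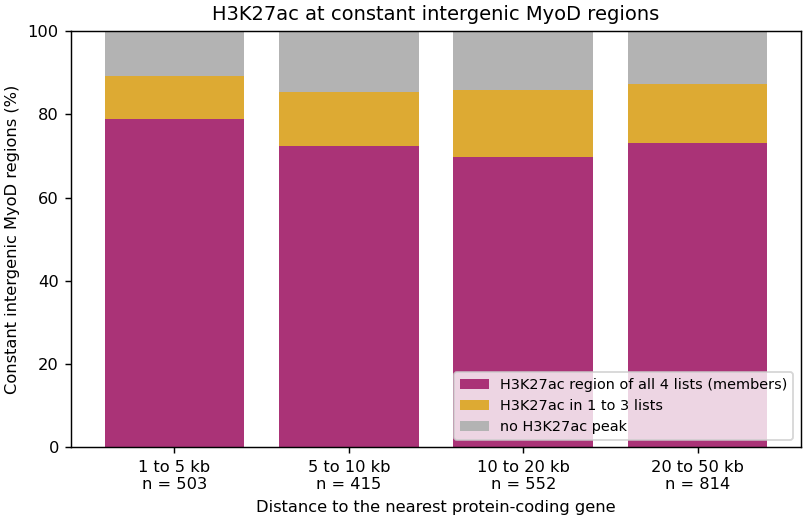
Share of constant intergenic MyoD regions (vertical axis, %) that lay in H3K27ac of all 4 libraries (the members), in H3K27ac of 1 to 3 libraries or in none, by distance to the nearest protein-coding gene (horizontal axis, kb). Members make up 69.7 to 78.9% of each bar.

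The bounds at 1 and 50 kb cut through a continuous range. Just inside 1 kb were the members near Baalc (1.005 kb; folds 12.6, 11.3, 12.4 and 15.7 in control 1, control 2, knockdown 1 and knockdown 2) and Dok7 (1.009 kb; 20.8, 18.2, 16.4 and 16.9). Just outside were regions near Sstr4 (0.992 kb; 10.6, 12.9, 9.95 and 9.40) and Cnnm4 (0.99 kb; 17.5, 12.7, 15.8 and 12.5). At the far bound, Supt3 (49.9 kb; 8.92, 14.6, 14.7 and 10.6) and Gpr158 (49.7 kb; 11.2, 8.61, 8.47 and 7.05) were in, and Bdh1 (50.02 kb; 16.5, 10.3, 15.5 and 12.1) and Phlda1 (50.04 kb; 4.17, 9.27, 5.84 and 5.09) were out.

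MyoD summits did not coincide with H3K27ac summits. In the library with the same group and number, the nearest H3K27ac summit was at a median distance of 303 bp in control 1, 298 bp in control 2, 297 bp in knockdown 1 and 306.5 bp in knockdown 2. Within 50 bp lay 1.61 to 2.15% of the members, whereas the fullest bin in every library, from 250 to 300 bp, held 14.4 to 16.0%. Between 80.8 and 82.3% were within 500 bp. The corresponding medians were 308 to 317 bp for acetylated regions inside genes and 299 to 318.5 bp at gene ends. When the nearest summit of any of the 4 H3K27ac libraries was taken, the mean of the members' medians was 220 bp. Few short distances and a maximum at 250 to 300 bp were thus seen in all 4 libraries.

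**Figure D4:**
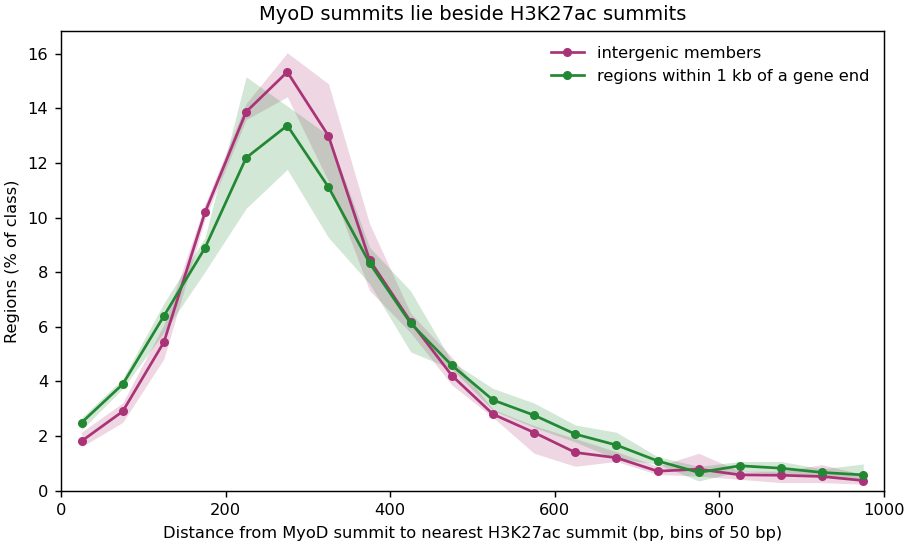
Distance from the MyoD summit to the nearest H3K27ac summit (horizontal axis, bp, bins of 50 bp) as a percentage of regions (vertical axis) for members and for constant acetylated regions within 1 kb of a gene end. Lines are means of the 4 libraries and bands run from the lowest to the highest; fewest of the near distances fall in the first bin, which holds 1.61 to 2.15% of the members.

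The hosts had a median width of 2018 bp, from 324 to 22413 bp, against 1676 bp for all constant H3K27ac regions. Choice by overlap with a MyoD region favours wider regions, so this difference is only described. A single member was found in 1418 hosts, 2 members in 101, 3 in 18 and 4 in 1. H3K27ac fold over the hosts had medians of 8.74 and 10.7 in control against 10.4 and 8.79 in knockdown libraries, against 7.06, 7.99, 8.37 and 6.92 over all constant H3K27ac regions. Because each host was chosen through a member outside protein-coding genes, few came within 1 kb of an end of such a gene (139 hosts, 9.04%). The host with 4 members overlapped Neat1, the lncRNA that scaffolds paraspeckles (chr19:5831516-5853439, 21924 bp, nearest gene Frmd8), with H3K27ac folds of 24.4 and 29.9 in control against 25.1 and 25.4 in knockdown libraries. Its members had MyoD folds of 5.95 to 12.9 in the controls and 7.45 to 14.5 in the knockdown, at mean ranks of 51.6 to 80.4, and 2 of them lay within Neat1.

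Hosts near Ccn4, which encodes a matricellular protein of the Wnt pathway, and near Lif, a cytokine gene, held 3 members each. The Ccn4 host spanned 15253 bp and had H3K27ac folds of 21.8 and 27.8 against 24.4 and 22.6. The Lif host spanned 13148 bp with 19.9 and 25.2 against 21.3 and 16.8, while its members were weak in MyoD, at 4.76 to 7.95 in the controls and 5.49 to 9.28 in the knockdown. The widest hosts were near Amotl2 (22413 bp) and, after the host at Neat1, in the Hoxa cluster near Hoxa9 (19819 bp), each with 1 member. The 5 hosts had mean H3K27ac ranks of 86.7 to 99.9, while the mean MyoD ranks of their members ran from 21.4 to 80.4.

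Over all members the relation was positive but loose. Split into 4 equal groups by MyoD rank, from weakest to strongest, the median host H3K27ac rank was 60.9, 61.2, 70.1 and 80.7, and host width 2031, 2072, 2103 and 2428 bp. Across the 1678 members, mean MyoD rank and host rank had a Pearson r of 0.231 and a Spearman rho of 0.232. This correlation is across regions of the same libraries, which are not independent replicates, and is a description.

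Members also stood in groups along the chromosomes. Within 10 kb of another member lay 445 members, in 193 groups of 2 to 5. The members had 1309 nearest genes, of which 1049 had 1 member, 188 had 2, 42 had 3 and 25 had 4. Azin1, whose product regulates polyamine uptake and synthesis, had 7, with folds from 5.96 to 14.6 in the controls. Gse1, Irf2bp2, Srsf3 and Sspn had 5 each, and Adra1b, Ccn4 and D7Ertd443e were the first of those with 4. Sspn encodes sarcospan of the dystrophin complex, and its 5 members lay 12.0 to 45.0 kb away, all within the lncRNA gene Gm32838. The 5 members of Gse1 were all in A330074K22Rik, and the 4 of Ccn4 all in Gm46514. Near the splicing-factor gene Srsf3, 1 of 5 reached folds of 29.4 and 30.1 in control against 29.1 and 21.6 in knockdown libraries (chr17:29056085-29057275), and another lay in Trp53cor1, a lncRNA gene of the p53 response, at 10.7 and 10.9 against 10.7 and 11.4. Neighbouring members thus differed several-fold in MyoD, within 1 library and 1 locus.

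The comparison of control with knockdown asked whether MyoD held its place at these sites. The median percentile rank of the members was 58.1 and 57.6 in control against 58.6 and 56.1 in knockdown libraries, means of 57.9 ± 0.33 and 57.4 ± 1.76 (SD, n = 2 each). The difference of -0.48 points had exact permutation p = 1, where the smallest p that 2 against 2 libraries allow is 0.333. Its sign was not stable: it was 0.90 without control 1, 0.93 without knockdown 2 and 1.10 when peaks were ranked by −log10 q. For the hosts, the H3K27ac rank medians were 63.4 and 69.8 against 64.7 and 67.2, means of 66.6 ± 4.49 and 65.9 ± 1.81 (SD, n = 2 each), a difference of -0.65 with exact permutation p = 1. It was 1.80 without control 2 and 0.61 without knockdown 1. No difference in rank beyond the spread of the replicates was detected for either antibody. Ranks are taken within a library, so a change common to all its constant regions would not show.

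Single members moved as much between replicates as between groups. The median absolute rank difference of a member was 9.72 points for the control pair, 12.4 for the knockdown pair and 10.5 to 11.7 for a control set against a knockdown library. For hosts it was 6.43 and 6.19 within groups and 5.84 to 6.98 between them.

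A member was counted as lower when both knockdown ranks were below both control ranks, and as higher in the reverse case. By this count 285 members (17.0%) were lower and 281 (16.7%) higher, while over all 9909 constant regions 15.9% were lower and 16.4% higher. Both shares were near the background, so the counts give no result about the members. Among 284 of the 1538 hosts (18.5%) H3K27ac was lower and among 248 (16.1%) higher, against 15.9% and 16.4% of the 26113 constant H3K27ac regions. Log2 folds centred on each library's median were also used in place of ranks. By these, 337 hosts (21.9%) were lower and 194 (12.6%) higher, against 17.1% and 15.0% of all constant H3K27ac regions. The balance between lower and higher hosts depended on the library. Without control 1, 43.8% were lower (697) and 26.9% higher (428), against 34.1% and 35.8% of all constant H3K27ac regions. Without control 2 the shares were 27.2% (434) and 38.7% (617), against 33.2% and 33.0%. They were 33.1% (528) and 35.1% (559) without knockdown 1, against 32.4% and 34.4%, and 36.6% (700) and 27.7% (529) without knockdown 2, against 31.4% and 30.5%.

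**Figure D5:**
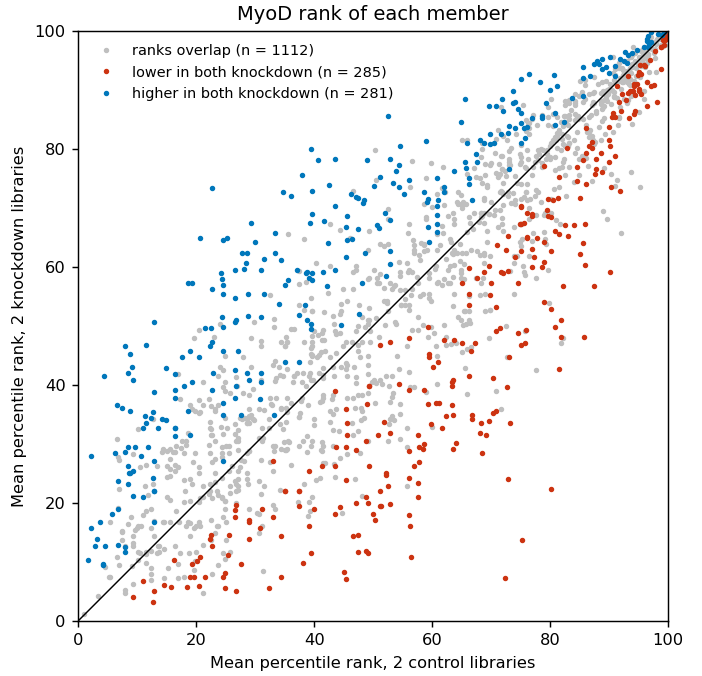
Mean percentile rank of MyoD fold in the 2 control libraries (horizontal axis) and in the 2 knockdown libraries (vertical axis) for each of the 1678 members; the line marks equal ranks. The 285 lower and 281 higher members lie on both sides of the line at all levels, and the 1112 others have ranks that overlap between groups.

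The sizes of these changes were alike in both directions. Lower members had a median change of -14.2 points, with 97 of 285 beyond 20 points, and higher members of 16.0 points, with 103 of 281. The largest fall was near Mroh1 (chr15:76377635-76378201), from 10.6 and 12.3 in control to 4.50 and 5.09 in knockdown libraries, a rank change of -65.1. Its host was weak in H3K27ac, with 4.09 and 4.73 against 3.14 and 3.67, and also lower in both knockdown libraries. Near Rbm12b1, MyoD had 11.2 and 12.3 against 6.47 and 4.62 (-61.6). The region near Rad51b, a gene of homologous recombination, had 11.6 and 14.6 against 7.37 and 5.09 (-57.8). Hosts of both were likewise lower by rank, at H3K27ac folds of 18.4 and 23.4 against 19.3 and 17.2 near Rbm12b1 and 11.5 and 15.4 against 12.6 and 10.3 near Rad51b. The other 2 of the 5 largest falls were near 1700013G24Rik (-48.7) and Trim47 (-45.6), and their host ranks overlapped between the groups.

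The largest rise was near Axin2, a Wnt target gene and Wnt inhibitor (chr11:108898318-108898947, 18.9 kb), from 7.27 and 5.63 in control to 13.6 and 9.01 in knockdown libraries, a rank change of 50.6. Next were Cables1 with 6.94 and 5.63 against 11.1 and 8.62 (44.3) and Syde1 with 10.2 and 5.89 against 12.2 and 12.1 (40.6). The member near Ccr7, a chemokine receptor gene, had 6.61 and 6.62 against 13.6 and 7.45 (40.1), and that near Tmem70, an assembly factor of mitochondrial ATP synthase, had 8.26 and 4.92 against 11.1 and 8.62 (39.8). Hosts were higher at Syde1 and Ccr7 and overlapped between the groups at the other 3. These 10 were taken as the extremes of the members and carry no test.

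MyoD and H3K27ac calls coincided in a modest number of members. Of the 285 members with lower MyoD, 55 (19.3%) lay in a lower host and 45 (15.8%) in a higher one. Of the 281 with higher MyoD, 38 (13.5%) lay in a lower and 51 (18.1%) in a higher host. Over all members the shares were 18.2% and 16.7%. Across the members the rank changes of MyoD and of host H3K27ac had a Pearson r of 0.0881 and a Spearman rho of 0.0726, again across regions and without a test. Most of the members at which MyoD ranks separated by group thus had host ranks that did not separate in the same direction.

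Genes of muscle were then followed through lists by role, where a member counts for a list if its nearest protein-coding gene is on it. Over all constant regions 16.9% were members. For MyoD, 15.9% of all constant regions were lower and 16.4% higher in the knockdown, and no list's counts were tested against these shares. Among the myogenic regulators 10 of 92 constant regions (10.9%) were members, 4 of them lower and 2 higher in the knockdown. The strongest was near Mef2a, the gene of a MADS-box partner of MyoD (chr7:67384999-67386035, 8.54 kb upstream), with 19.3 and 27.5 in control against 34.6 and 34.9 in knockdown libraries, and H3K27ac folds of 16.4 and 18.6 against 18.2 and 16.4. A second Mef2a member 38.4 kb away went the other way, 7.27 and 9.27 against 5.53 and 4.40. Myod1 itself had 3 members in 1 host of 7665 bp. The nearest (22.6 kb) had 16.5 and 21.2 against 19.9 and 10.2, and its groups overlapped. The other 2, at 25.9 kb with 15.5 and 16.9 against 15.1 and 12.1 and at 27.1 kb with 14.3 and 14.2 against 11.8 and 8.62, were lower by rank in both knockdown libraries, while the host's H3K27ac at 20.1 and 21.9 against 17.8 and 19.8 overlapped between groups by rank. Tead1, a Hippo-pathway transcription factor gene, had 12.9 and 8.98 against 9.58 and 11.4, and Fst, which encodes the myostatin antagonist follistatin, had 12.2 and 8.61 against 7.0 and 9.01. Mef2d was among the higher and Meox1 among the lower, with 5.36 and 5.63 against 7.0 and 6.27 and with 11.9 and 10.9 against 9.62 and 4.83. By H3K27ac rank, the hosts of Mef2d, Meox1, Fst and the second Mef2a member were all higher. The Fst host had H3K27ac folds of 3.72 and 4.14 against 4.91 and 5.23. The Mef2d host had 15.6 and 18.1 against 17.8 and 15.7, which overlapped by fold.

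Repressors of the muscle programme had 19 members among 59 constant regions (32.2%), with 4 lower and 1 higher, where 15.9% and 16.4% of all constant regions were. The Id genes encode helix-loop-helix proteins that bind E proteins and keep them from MyoD. Id3 had 4 members, the strongest 23.1 kb upstream (chr4:136119924-136120695) with 25.1 and 18.5 against 22.5 and 16.1. Zeb1, the gene of a zinc-finger repressor that binds E-boxes, also had 4, the strongest with 14.5 and 16.6 against 16.2 and 13.7. Bhlhe41 had 16.9 and 11.9 against 15.5 and 13.3, and Id2 at 2.4 kb had 10.9 and 11.3 against 13.3 and 9.80. Those 4 genes' leading members all overlapped between the groups. The 4 lower members were near Zeb2, Id1, Mdfi and Id2 at 48.5 kb. Zeb2 had 12.6 and 11.9 against 9.62 and 9.80, and Id1 had 10.2 and 10.6 against 9.93 and 8.62. Mdfi had 8.92 and 8.94 against 8.10 and 7.84, and this Id2 member had 6.28 and 6.95 against 5.16 and 4.22. Of 2 members near Msc, which encodes the MyoD repressor musculin, 1 was higher, with 6.28 and 6.62 against 9.95 and 7.84. The other had 7.27 and 8.94 against 4.91 and 7.45, and its ranks overlapped between the groups. The host they share was higher, with H3K27ac folds of 4.46 and 4.50 against 6.03 and 7.26.

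Genes of satellite cell identity and quiescence had 20 of 81 (24.7%), with 3 lower and 2 higher. Fgfr4, a growth factor receptor gene of myoblasts, had 3 members, the strongest with 24.5 and 21.9 in control against 21.3 and 19.99 in knockdown libraries (chr13:55171307-55172371), which was lower by rank although its host was higher by rank at 20.6 and 24.3 against 22.7 and 21.8. The Notch receptor gene Notch1 and the ligand gene Dll1 also had 3 each. The strongest for Notch1 had 16.2 and 15.6 against 18.8 and 14.9, higher by rank, and that for Dll1 10.6 and 10.3 against 9.95 and 10.6. The host of this Notch1 member was lower by rank, with H3K27ac folds of 8.74 and 11.8 against 6.41 and 5.92. Col5a1, a collagen gene of the quiescent niche, had 12.2 and 15.2 against 11.3 and 14.1. The paired-box gene Pax7, which defines satellite cells, had 1 member 25.01 kb downstream with 7.30 and 8.69 against 7.56 and 7.45, outside the 4 strongest genes of the list and named for its role.

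Sarcomere genes had 14 of 57 (24.6%), with 5 lower and 2 higher, again beside 15.9% and 16.4% of all constant regions. The developmental myosin genes Myh3 and Myh8 had 16.9 and 13.0 against 17.7 and 15.3 (higher) and 13.5 and 15.9 against 13.3 and 12.5. Myl1, a myosin light chain gene, had 13.5 and 11.9 against 16.2 and 14.1 (higher). Acta1, the skeletal actin gene, had 2 members in 1 host, of which the stronger had 11.6 and 11.9 against 12.9 and 9.01 and overlapped between the groups. Lower members were near Acta1, Lmod2, Myh2, Tpm1 and Myh7. Myh2, the fast myosin gene of type IIa fibres, had 10.9 and 11.3 against 7.0 and 7.05, and Tpm1, the tropomyosin gene, had 10.9 and 8.94 against 7.0 and 6.66 in a host that was lower too. The host of the higher Myh3 member was also lower, with H3K27ac folds of 11.5 and 11.8 against 9.05 and 9.56.

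The lists of the contracting and innervated fibre were smaller. Excitation-contraction coupling had 3 of 31 (9.68%): Sln, an inhibitor of the calcium pump, with 12.6 and 17.2 against 15.1 and 14.1, the pump gene Atp2a1 with 14.9 and 13.6 against 11.4 and 8.23 (lower), and Bin1 with 6.84 and 7.49 against 9.58 and 6.66. Fusion and neuromuscular junction had 5 of 50 (10.0%), with 0 lower and 0 higher by rank. They were Dok7, an adaptor of the receptor kinase MuSK, with 20.8 and 18.2 against 16.4 and 16.9, the membrane-repair gene Dysf with 12.9 and 11.6 against 7.76 and 10.6, both below the controls by fold but overlapping by rank, and Chrne, Itga7 and Musk at 5.95 to 9.95 in all 4 libraries.

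Extracellular matrix and TGF-beta genes had 12 of 72 (16.7%), with 2 lower and 3 higher. Besides Lama5 these included Tnc, the tenascin gene, whose strongest of 3 members had 15.2 and 12.3 against 15.8 and 12.9, and Col4a1 with 14.2 and 13.6 against 14.0 and 9.36 (lower). By H3K27ac rank, the hosts of the Lama5 member, of this Col4a1 member and of the strongest Tnc member were higher. So was that of a Tnc member 31.0 kb away. The Lama5 host had H3K27ac folds of 22.3 and 26.0 against 26.2 and 22.1. The Col4a1 host had 8.29 and 9.77 against 10.2 and 8.54, so both overlapped by fold. A Tgfb2 member with higher MyoD lay in a lower host, with H3K27ac folds of 10.2 and 10.7 against 8.19 and 7.01. The host of the weaker Col4a1 member was lower too. For IGF signalling 4 of 31 (12.9%) were members, with 0 lower and 0 higher: Irs2 at 7.93 and 8.94 against 9.21 and 5.88, Igf2 at 10.6 and 7.95 against 5.84 and 7.45, Irs1 at 7.93 and 5.38 against 5.89 and 6.27, and Mycn at 4.10 and 6.08 against 5.16 and 5.88. The immediate early genes had 6 of 28 (21.4%), with 0 lower and 1 higher. Both Fos and Atf3 encode AP-1 family factors. The strongest Fos member had 15.5 and 17.6 against 16.9 and 16.5 and the Atf3 member 11.2 and 12.3 against 11.3 and 12.1, and their ranks overlapped between the groups. A second Fos member, 42.2 kb away, was the higher one, with 4.63 and 5.63 against 8.10 and 7.05, while its host was lower by rank. Junb had 8.59 and 7.62 against 10.3 and 4.70, and Jun 8.26 and 6.62 against 8.84 and 6.64. By H3K27ac rank, the hosts of the Atf3 and Junb members and of a member near Egr1 were higher. The H3K27ac folds were 4.31 and 5.03 against 6.55 and 5.48 at the Atf3 host. At the Junb host they were 18.2 and 20.7 against 22.7 and 17.9, and at the Egr1 host 7.06 and 7.99 against 12.6 and 7.26.

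Cell cycle genes had 5 of 35 (14.3%): the cyclin gene Ccne1 with 20.8 and 15.9 against 15.8 and 11.5 (lower) and a second member at 16.9 and 11.9 against 15.8 and 12.9, Cdk6 with 12.2 and 13.9 against 16.2 and 9.40, and 2 near Gadd45b of which the stronger had 14.4 and 8.94 against 13.4 and 10.2. Housekeeping genes had 4 of 13 (30.8%), with 2 higher, near Actb and Eef1a1. That share lay close to the repressors' 32.2% and came from few regions.

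Markers of other cell types that a muscle preparation could hold had from 3 to 24 constant regions per list, and their part in the results was not tested. Fibro-adipogenic markers had 0 members among 3 constant regions and immune markers 0 among 5. Endothelial markers had 2 of 21 (9.52%), both near Cldn5, the stronger with 20.8 and 20.9 in control against 14.0 and 14.5 in knockdown libraries (lower). Smooth muscle and pericyte markers had 2 of 6 (33.3%), near Notch3 with 9.91 and 10.3 against 12.2 and 8.62 and Kcnj8 with 10.2 and 9.27 against 11.1 and 8.23. Schwann and neural markers had 4 of 24 (16.7%), near Ncam1, Sox10 and Pmp22. The 2 higher were a member near Ncam1 with 7.27 and 6.29 against 10.3 and 7.45 and that near Pmp22 with 5.62 and 6.29 against 7.37 and 7.05. Sox10 had 13.5 and 11.6 against 12.5 and 7.85 and the stronger member near Ncam1, which muscle cells also express, had 13.2 and 11.3 against 14.0 and 8.62.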

How the data were processed

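H3K27ac and MyoD ChIP-seq peak lists of 8 libraries (2 per group and antibody) were used; the 8 input libraries were not analysed here. Per the submitters' processing notes the build was mm10 and the tools were MACS2 2.1.1, Bowtie2 2.3.2, bedtools 2.26.0, SAMtools 1.3 and Picard 2.9.2, named without options. There is 1 deposited list per library, so peaks were not called on pooled replicates. The deposited fold enrichment of a peak is a linear ratio of summit signal to background. Beside it the authors' lists hold −log10 p, −log10 q and a whole-number score. Fold is the authors' value for each peak, used only to describe and rank peaks within a list. No read counts are given, so depth and counting error are unknown.

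Peaks on chromosomes 1 to 19 and X were merged (gap 0 bp, overlap of at least 1 base). Distances were taken to 21627 protein-coding genes from RefSeq (GRCm38.p6). Percentile ranks were taken among regions with a peak in all 4 lists of an antibody, with the highest fold where a region held several peaks of a list. Tests were two-sided exact permutations over libraries, with a smallest p of 0.333 for 2 against 2 and 0.13 for sign flips over 4. Named members were the 10 with the highest mean rank, the 5 largest falls and rises whose ranks did not overlap, the 8 genes with most members, up to 4 genes per list with the highest-ranked members, the hosts with most members or greatest width, those at the bounds and those within 10 kb of a microRNA hairpin. Names outside this rule (such as Mir206, Pax7 and others given for a list's counts) were chosen after their values were seen. A gene that this rule names is not reported here. All 328 genes of the 16 lists (11 functional, 5 of markers) matched the table by symbol. Members and lists were chosen with earlier results of these data known. The planned E-box count at summits needs a genome and was replaced by RefSeq start windows. Python 3.11.15, pandas 2.3.3, numpy 2.4.6, scipy 1.17.1 and matplotlib 3.10.9 were used, and the code was tested on simulated data. Alternatives were another merge gap, a −log10 q of at least 5, an overlap of at least 50%, a bound of 2 kb, other ranks and centring, and each library left out.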

Additional observations from a re-analysis of the deposited data

How the results depend on the processing

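Of the alternatives run, 93 values kept their direction and stayed within the limits set, 21 moved and 5 changed sign. The number of members was 1677 with a merge gap of 100 bp, 1299 with a −log10 q of at least 5, 1596 with at least 50% of the MyoD region covered, 1561 from 2 to 50 kb, and 1732 to 2096 when 1 library number was left out of both antibodies, where peaks in 3 libraries per antibody are asked for. The MyoD rank difference of -0.48 became 1.10 with −log10 q ranked, 0.90 without control 1 and 0.93 without knockdown 2, in a range of -1.12 to 0.93 over the libraries left out. The H3K27ac rank difference of -0.65 became 1.80 without control 2 and 0.61 without knockdown 1, in a range of -4.30 to 1.80. Leaving out 1 library loosens the call, since it then sets 1 library against 2: MyoD gave 529 to 721 lower and 534 to 758 higher members, and H3K27ac 434 to 700 lower and 428 to 617 higher hosts, with 30.5 to 35.8% of all constant regions of an antibody called in a direction, against 15.9 to 16.4% with all 4 libraries. The differences in MyoD rank and peak width from the other classes were also computed with a −log10 q of at least 5, with −log10 q ranked and with each library left out. Their means over the libraries kept their sign there. The distance between MyoD and H3K27ac summits was 219.75 bp with summits of any library. The counts of the 16 gene lists were identical with the larger merge gap. The cause of the sign changes was not tested. The planned E-box content in windows of 200 bases, and its alternatives with 100 bases and with −log10 q of at least 5, were not run.

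Same-numbered libraries share only a number. The deviations of same-numbered control and knockdown libraries had a correlation of 0.132 over MyoD members and 0.0604 over hosts, with only 2 pairs. The replicate block asks only that the knockdown library lie on the same side of its control in both pairs. For MyoD, 437 members (26.0%) were lower and 431 (25.7%) higher, against 25.7% and 25.8% of all constant MyoD regions. For H3K27ac, 443 hosts (28.8%) were lower and 389 (25.3%) higher, against 25.8% and 26.5% of all constant H3K27ac regions. The rank differences were the same under the block, where the smallest exact p is 0.5. The control and knockdown groups hold 2 libraries each, so no exact test here could reach 0.05, and unknown depth limits what a rank in a list of few peaks can show.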
